A study of Mus musculus with 4 samples.

Results

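The copy number of 8 genes of the DNA damage response was read in liver tumours of mice that lack both Fah and Trp53. The 8 genes, Atm, Atr, Prkdc, Chek1, Chek2, Trp53bp1, Brca1 and Brca2, were chosen by name, and all 8 had probes of that gene name on the array, 62 probes of their own among the probes of 17960 autosomal genes tested. The tumours came from 4 animals labelled male, numbered 239, 240, 244 and 252, with the genotype Fah-/- Trp53-/-. The control was liver DNA of 3 sex-matched Fah+/+ Trp53+/+ littermates, pooled into 1 sample. Fah encodes the enzyme that ends tyrosine breakdown, and Trp53 encodes p53. Mice without Fah survive on NTBC, which blocks tyrosine breakdown further upstream, here given at 7.5 mg per L of drinking water and then at 2.5% of that dose for 6 months. The sources used here name no strain or age and do not say which parts of both genes were deleted. The share of non-tumour cells in each tumour was not measured, and such cells bring every copy number change closer to 0.

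Cells answer broken or stalled DNA through a relay of kinases. ATM and the DNA-dependent protein kinase, whose catalytic subunit is the product of Prkdc, act at double-strand breaks, and ATR acts at single-stranded DNA of stalled forks. ATM passes its signal largely to CHK2 and ATR to CHK1, and both arms reach p53, which these animals lack. TRP53BP1 and BRCA1 steer breaks towards end joining or homologous recombination, and BRCA2 acts in homologous recombination.

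Every array paired Cy5-labelled tumour DNA with the Cy3-labelled pool. Each value is the log2 of the tumour signal divided by the pool signal, centred on the autosomal median of each array, and positions are those of mm9. An own-probe level is the mean over the probes that carry the gene's name, and a regional level is the mean over all other probes within 1 Mb. One extra copy throughout a diploid tumour would read 0.58, and one lost copy -1. The knocked-out genes had 2 probes each, with means of 0.04 ± 0.20 for Fah and 0.07 ± 0.01 for Trp53 (SD, n = 4), and such probes check nothing about the genotype while the deleted parts are unknown. The SD estimated from differences between neighbouring probes was 0.25 to 0.35 per array, which also takes in probe differences that repeat between arrays. The X chromosome of tumour 252 had a median of 0.73, against -0.30 to -0.09 in the other tumours. Its Y probes had a median of -2.43, against -0.31, -0.14 and -1.20 in tumours 239, 240 and 244. Both medians go against the male label of tumour 252. Calls of the 8 genes and of the named pathway genes that end without that tumour are given with them or with their list. With 4 arrays the precision is limited, and the spread among the 3 pooled control livers enters no test, since they were hybridised as 1 sample.

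The probes of Atr and Chek1 carry the lowest values of the set and show how far single probes of a gene can differ. They are printed 5′ to 3′ as the scanner files give them, in lower case throughout because no part of them is singled out. The files do not give a strand, and an mm9 annotation of exons and introns was not used here. The first sequence is the lowest Atr probe, at chr9:95828026-95828085, followed by the next lowest pair and by the highest, at chr9:95806517-95806576. The last pair are the only Chek1 probes, at chr9:36520964-36521023 and chr9:36533573-36533632.
Atr probe 7: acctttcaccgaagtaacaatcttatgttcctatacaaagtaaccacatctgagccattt
Atr probe 3: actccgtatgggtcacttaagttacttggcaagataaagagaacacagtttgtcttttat
Atr probe 4: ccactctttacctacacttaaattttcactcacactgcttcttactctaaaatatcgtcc
Atr probe 5: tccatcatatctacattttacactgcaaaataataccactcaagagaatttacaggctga
Chek1 probe 1: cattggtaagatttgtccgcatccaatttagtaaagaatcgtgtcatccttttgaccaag
Chek1 probe 2: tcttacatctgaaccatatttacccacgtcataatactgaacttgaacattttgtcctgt
G and C made up 33.3% to 40.7% of the bases of the 62 probes, and all 248 probe values of the 8 genes (62 probes on 4 arrays) were well above background in both colours.

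No region around any of the 8 genes reached the level of a single-copy change in every diploid cell. Over the 8 genes and 4 tumours, regional levels ran between -0.28, around Chek1 in tumour 244, and 0.33, around Prkdc in the same tumour. Of the 32 regional levels, 3 lay at -0.2 or less and 2 at 0.2 or more. The low ones were those of Chek1 in tumours 244 and 252 and of Atm in tumour 244, and the high ones those of Prkdc and Chek2 in tumour 244. Tumour 244 held 2 of the 3 low levels and both high ones, and in that tumour 26.4% of all gene regions were at -0.2 or less and 20.1% at 0.2 or more. The other tumours had 4.47% low and 4.26% high regions in tumour 239, 1.87% and 1.72% in tumour 240, and 2.87% and 3.76% in tumour 252. Values close to the threshold were 0.20 for Chek2 in tumour 244, -0.203 for Chek1 in tumour 252 and, just short of it, -0.193 for Atr in tumour 244. With tumour 244 centred on its most frequent level, which lay 0.0925 above its median, the level of Chek2 was 0.11 and that of Atr -0.29 there.

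None of the 8 regional levels passed limma's adjusted threshold of 0.05 across the 4 tumours, in either direction. At an unadjusted p under 0.05, 2 regions lay above 0 and 1 below. At the adjusted threshold, 6.44% of the regions of all genes were called higher and 4.77% lower. Their share at an unadjusted p under 0.05 was not computed. The nearest to the threshold were the region of Chek1, at -0.16 ± 0.10 (SD, n = 4; limma adjusted p = 0.0730), that of Chek2, at 0.12 ± 0.07 (limma adjusted p = 0.0820), and that of Trp53bp1, at 0.11 ± 0.06 (limma adjusted p = 0.0914). All 3 lay on the same side of 0 in 4 of 4 tumours. Without tumour 244 all 3 passed, at -0.12, 0.09 and 0.09 (limma adjusted p = 0.0162, 0.0161 and 0.0210), but then 39% of all gene regions passed as well. Without tumour 239 or 252 not one of the 17960 regions passed.

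**Figure D1:**
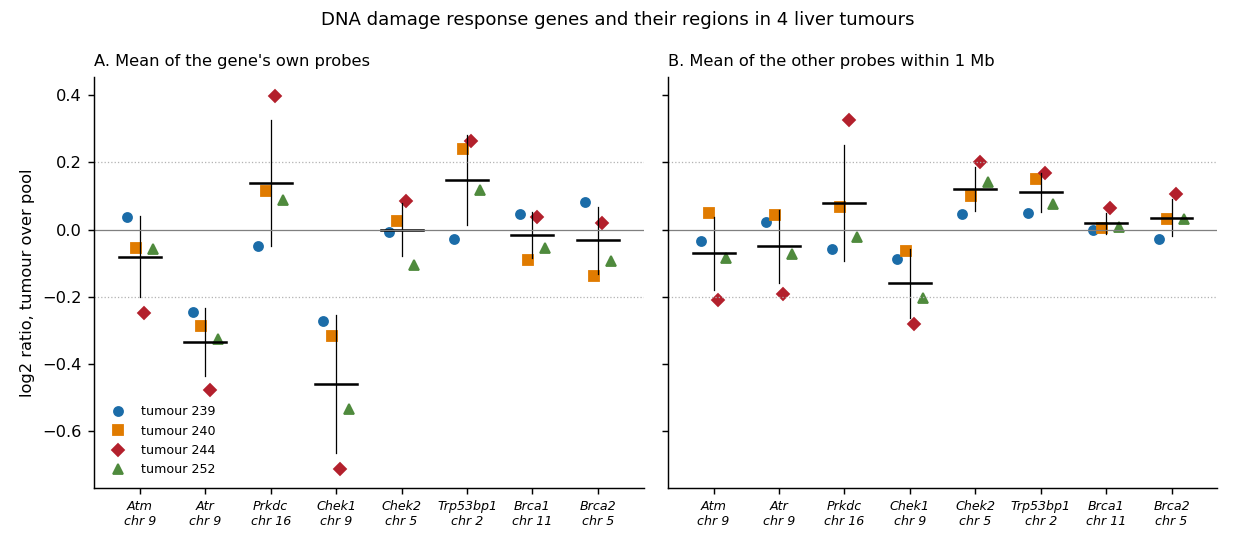
Own-probe levels (A) and regional levels (B) of the 8 genes as log2 ratios of tumour over pool, 1 marker per tumour, with the mean as a bar, the SD over 4 tumours as a thin line and dotted lines at -0.2 and 0.2. Atr and Chek1 lie below 0 in every tumour in A, while in B the region of Atr lies on both sides of 0. In B tumour 244 is the farthest from 0 for each of the 8 genes. With each array centred on its most frequent level instead, this did not hold for Chek2, Brca2 and Trp53bp1.

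Atm, the kinase that responds to double-strand breaks, stayed close to its region. Its 10 probes, from 53255595 to 53339466 on chromosome 9, averaged 0.04, -0.06, -0.25 and -0.06 in tumours 239, 240, 244 and 252. Only tumour 244 stood clearly below 0, and there the neighbours stood at -0.21 and the chromosome at -0.23. The mean was -0.08 ± 0.12 (SD, n = 4; limma adjusted p = 0.357), and the gene differed from its region by -0.01 ± 0.08 (limma adjusted p = 0.833), a value whose sign changed with the processing. Exph5, the nearest gene before it with at least 3 probes, had -0.22 in tumour 244, and Npat, the nearest after it, had -0.28.

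Atr, the kinase that responds to stalled replication forks, lay below 0 in every tumour on its own probes but not in its region. Its 9 probes, from 95763254 to 95851246 on chromosome 9, averaged -0.25, -0.29, -0.48 and -0.32 in tumours 239, 240, 244 and 252. The 181 other probes within 1 Mb averaged 0.02, 0.04, -0.19 and -0.07. All 4 own-probe levels therefore lay below all 4 regional ones. The mean was -0.33 ± 0.10 (SD, n = 4; limma adjusted p = 0.00295), and the difference from the region was -0.28 ± 0.03 (limma adjusted p = 0.00171), lower in 4 of 4 tumours. Without tumour 252 the difference was -0.30 (limma adjusted p = 0.00991).

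This difference was carried unevenly by the probes. Probe 7 stood at -1.17, -1.03, -1.37 and -1.60 in the 4 tumours, a mean of -1.29. Probes 3, 4 and 6 averaged -0.53, -0.52 and -0.39, and probes 1 and 5 averaged 0.02 and 0.19. Low and high probes were interspersed along the gene, and 5 of the 9 lay below 0 in all 4 tumours. The SD over the 9 probes was 0.43, larger than the SD of 0.10 over the tumours. Without probe 7 the gene averaged -0.21 and its difference from the region was -0.16. Among the neighbouring probes, 1 of 181 was as low as probe 7. With all 9 probes, Atr was among 21 of the 2706 genes with at least 9 probes, 0.776% of them, that lay this far below their region. This share was not computed without probe 7. Pls1 and Xrn1, the nearest genes on either side with at least 3 probes, averaged -0.16 ± 0.12 and -0.02 ± 0.12 (SD, n = 4; limma adjusted p = 0.0830 and 0.807).

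Prkdc, which encodes the catalytic subunit of the DNA-dependent protein kinase, was highest in tumour 244. Its 19 probes, from 15638344 to 15834832 on chromosome 16, averaged -0.05, 0.12, 0.40 and 0.09 in tumours 239, 240, 244 and 252. The 132 neighbouring probes averaged -0.06, 0.07, 0.33 and -0.02, and chromosome 16 as a whole lay at 0.30 in tumour 244 and between -0.01 and 0.06 in the others. The own-probe mean was 0.14 ± 0.19 (SD, n = 4; limma adjusted p = 0.179). Leaving out tumour 244 gave 0.05. The gene lay above its region in 4 of 4 tumours, by 0.06 ± 0.04 (limma adjusted p = 0.177). Under normexp background correction, which here started from raw intensity and not from the processed signals, the difference was -0.04. Ube2v2, the nearest gene before it with at least 3 probes, had 0.43 in tumour 244 and 0.03 to 0.16 in the others. Spidr, the nearest after it, had 0.30 in tumour 244 and -0.10 to 0.05 in the others.

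Chek1, the checkpoint kinase downstream of ATR, had only 2 probes, from 36520964 to 36533632 on chromosome 9. They averaged -0.27, -0.32, -0.71 and -0.53 in tumours 239, 240, 244 and 252, against -0.09, -0.06, -0.28 and -0.20 for the 134 neighbouring probes. The own-probe level was thus below the regional one in each tumour, and the regional level was itself below that of chromosome 9 in each tumour, which stood at -0.02, -0.00212, -0.23 and -0.09. The mean of the gene was -0.46 ± 0.20 (SD, n = 4; limma adjusted p = 0.00188) and its difference from the region -0.30 ± 0.11 (limma adjusted p = 0.00441). Without tumour 252 that difference was -0.29 (limma adjusted p = 0.0232).

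Both calls of Chek1 ended under normexp background correction, at -0.10 for the gene and 0.08 for the difference (limma adjusted p = 0.299 and 0.145). With the intensity trend removed by lowess the difference was -0.15 and still called (limma adjusted p = 0.0228). Probe 1 averaged -0.23 and probe 2 averaged -0.69, and 9 of the 134 neighbouring probes were as low as probe 2. Probe 2 was also brighter than 95.9% of autosomal probes. Of the 11622 genes with at least 2 probes, 8390 of which had at least 3, 4.69% lay as far below their region. This share was not computed among genes with 2 probes alone. Stt3a, the nearest gene after it with at least 3 probes, averaged -0.14 ± 0.10 (SD, n = 4; limma adjusted p = 0.0938). On the other side 1700027I24Rik had 0.04, 0.19, -0.13 and -0.09 in tumours 239, 240, 244 and 252.

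**Figure D2:**
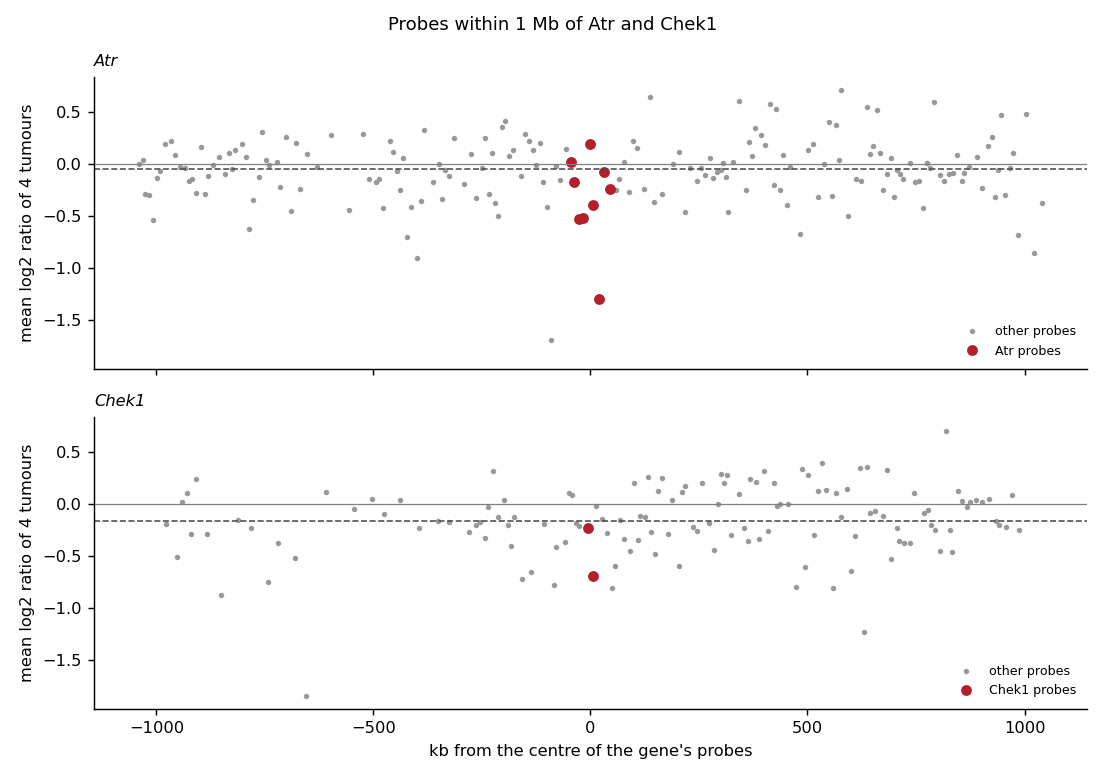
Mean log2 ratio over the 4 tumours of every probe within 1 Mb of Atr (top) and Chek1 (bottom) against distance in kb from the centre of the gene's probes, own probes in red and the others in grey, with the regional mean dashed. The Atr probes spread between -1.29 and 0.19 around a regional mean of -0.05, and the 2 Chek1 probes lie at -0.23 and -0.69 around -0.16.

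Chek2, the checkpoint kinase downstream of ATM, had 3 probes from 111277880 to 111296595 on chromosome 5. They averaged -0.01, 0.02, 0.09 and -0.10 in tumours 239, 240, 244 and 252, on both sides of 0. The 161 neighbouring probes averaged 0.05, 0.10, 0.20 and 0.14, so the gene lay below its region in 4 of 4 tumours, by -0.12 ± 0.09 (SD, n = 4; limma adjusted p = 0.0558). It was called lower with neighbours within 500 kb, among genes with at least 3 probes and without tumour 239. There it stood at -0.15, -0.12 and -0.14 from its region (limma adjusted p = 0.0321, 0.0222 and 0.0439). With normexp the gene stood 0.28 above the region (limma adjusted p = 0.000499), and with lowess 0.0086 above it (limma adjusted p = 0.849). No direction is therefore given for the gene against its region. Ep400, the nearest gene before it with at least 3 probes, averaged 0.07 ± 0.07 (SD, n = 4; limma adjusted p = 0.373). Ttc28, the nearest after it, averaged 0.22 ± 0.10 over 43 probes (SD, n = 4; limma adjusted p = 0.0198).

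Trp53bp1, the p53-binding protein that protects broken ends from resection, had 8 probes from 121024547 to 121096077 on chromosome 2. They averaged -0.03, 0.24, 0.26 and 0.12 in tumours 239, 240, 244 and 252, and the 193 neighbours averaged 0.05, 0.15, 0.17 and 0.08. Gene and region were thus lowest in the same tumour, 239. The gene mean was 0.15 ± 0.13 (SD, n = 4; limma adjusted p = 0.109). Leaving out tumour 239 gave 0.21 (limma adjusted p = 0.0492). The difference from the region was 0.04 ± 0.08 (limma adjusted p = 0.469). Under normexp both were called higher, the gene at 0.19 and the difference at 0.14 (limma adjusted p = 0.0361 and 0.0188). Tgm5, the nearest gene before it with at least 3 probes, averaged 0.01 ± 0.06 (SD, n = 4; limma adjusted p = 0.909). Ppip5k1, the nearest after it, averaged 0.21 ± 0.07 (SD, n = 4; limma adjusted p = 0.0228).

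Brca1, which promotes end resection and homologous recombination, lay near 0 in every tumour. Its 7 probes, from 101353838 to 101410077 on chromosome 11, averaged 0.05, -0.09, 0.04 and -0.05 in tumours 239, 240, 244 and 252. The 196 neighbours averaged between -0.00223 and 0.07. The gene mean was -0.02 ± 0.07 (SD, n = 4; limma adjusted p = 0.856) and the difference from the region -0.03 ± 0.06 (limma adjusted p = 0.461). The mean joined probes of opposite sign: the first 4 by position averaged 0.23, 0.27, 0.12 and 0.13, and the last 3 averaged -0.34, -0.30 and -0.21. In tumour 239 the last probe stood at 0.09, and in tumour 240 the fourth at -0.01, and all other probes kept these signs in each tumour. Ezh1, the nearest gene before it with at least 3 probes, lay 271 kb away and was called lower, at -0.25 ± 0.11 (SD, n = 4; limma adjusted p = 0.0134). Nbr1, the nearest after it, averaged 0.01 ± 0.06 (limma adjusted p = 0.923).

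Brca2, which acts in homologous recombination, had 4 probes from 151336312 to 151363117 on chromosome 5, 40.04 Mb from Chek2. They averaged 0.08, -0.14, 0.02 and -0.09 in tumours 239, 240, 244 and 252, and the neighbours -0.03, 0.03, 0.11 and 0.03. Tumour 239 was the highest for the gene and the lowest for the neighbours, while tumour 244 lay above tumours 240 and 252 in both. The gene mean was -0.03 ± 0.10 (SD, n = 4; limma adjusted p = 0.717) and the difference from the region -0.07 ± 0.12 (limma adjusted p = 0.324). Under normexp both were called lower, the gene at -0.26 and the difference at -0.27 (limma adjusted p = 0.00582 and 0.00307), and without tumour 239 the difference was -0.13 (limma adjusted p = 0.0308). Fry, the gene before it with at least 3 probes, averaged 0.06 ± 0.05 over 25 probes (SD, n = 4; limma adjusted p = 0.432). The nearest after it, which the files give only a transcript identifier, averaged -0.03 ± 0.04 (limma adjusted p = 0.744).

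Set in order of their own-probe means, the genes ran Chek1 at -0.46, Atr at -0.33, Atm at -0.08, Brca2 at -0.03, Brca1 at -0.02, Chek2 at about 0, Prkdc at 0.14 and Trp53bp1 at 0.15. In this order the means of Atr and Atm, with SDs of 0.10 and 0.12 over the tumours, and of Chek2 and Prkdc, with SDs of 0.08 and 0.19, lay farther apart than at least 1 of their SDs, as did those of Chek1 and Atr. The other neighbouring means lay closer together than either SD. In counts, 2 of the 8 own-probe means were called lower by limma and 0 higher, with 0 higher also at an unadjusted p under 0.05. Over all genes 17.7% were called lower and 21.2% higher. Against their regions, 2 of the 8 were called lower and 0 higher (0 also at an unadjusted p under 0.05), where 22.9% of all genes were called lower and 25.8% higher. A count of 2 in 8 is near that background. Calls were commoner among genes with 1 to 2 probes, as Chek1 has, than among genes with at least 9, as Atr has. Against 0 these shares were 21.9% and 10.3% lower, and against the region 26.5% and 12.7% lower. The median difference from the region was -0.05 over the 8 genes and 0.01 over all genes.

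The 3 genes of chromosome 9, Chek1, Atm and Atr, shared the lower level of that chromosome in tumour 244. They lie 16.7 and 42.4 Mb apart in that order, so their 1 Mb windows share no probe. In tumour 244 the windows stood at -0.28, -0.21 and -0.19 and the chromosome at -0.23. In tumour 239 the windows were at -0.09, -0.03 and 0.02, in tumour 240 at -0.06, 0.05 and 0.04, and in tumour 252 at -0.20, -0.08 and -0.07. The window of Chek1 was the lowest of the 3 in every tumour. Of all genes on chromosome 9, 25% were called lower than 0 on their own probes, and 21.6% lower than their regions.

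**Figure D3:**
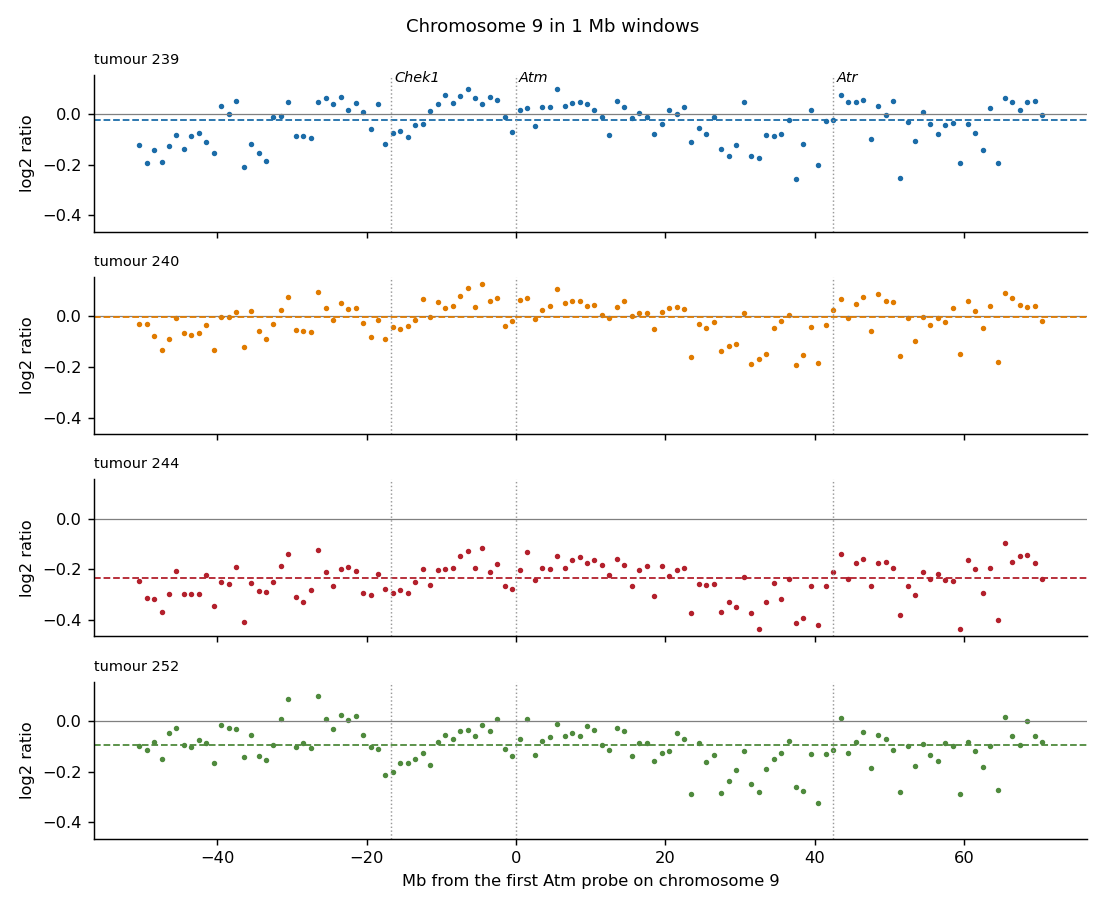
Mean log2 ratio of tumour over pool in 1 Mb windows along chromosome 9 in each tumour, against distance in Mb from the first Atm probe, with the chromosome mean dashed and the 3 genes marked by dotted lines. In tumour 244 the windows lie around the chromosome mean of -0.23, below the chromosome means of -0.09 to -0.00212 in the others.

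The values of single probes repeated from tumour to tumour. Of the 62 own probes, 18 lay below 0 and 16 above 0 in all 4 tumours, 29.0% and 25.8%, where 28.3% of all autosomal probes lay below and 27.7% above in all 4. Across the 19 probes of Prkdc, the correlation between tumours ran from 0.73 to 0.85 over the 6 pairs of tumours, and across the 9 of Atr from 0.83 to 0.96. It was 0.70 to 0.96 across the 7 of Brca1, 0.26 to 0.84 across the 10 of Atm and 0.16 to 0.94 across the 8 of Trp53bp1. These are descriptions across probes: the arrays share the probe sequences, the pool and the dye orientation. In Prkdc 9 of the 19 probes lay above 0 in all 4 tumours and 3 below. The spread that limma uses is the one between tumours, which leaves this probe pattern out. For Atr the SE over its probes was 0.14, against a limma SE of 0.06. For Chek1 these were 0.23 and 0.08.

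**Figure D4:**
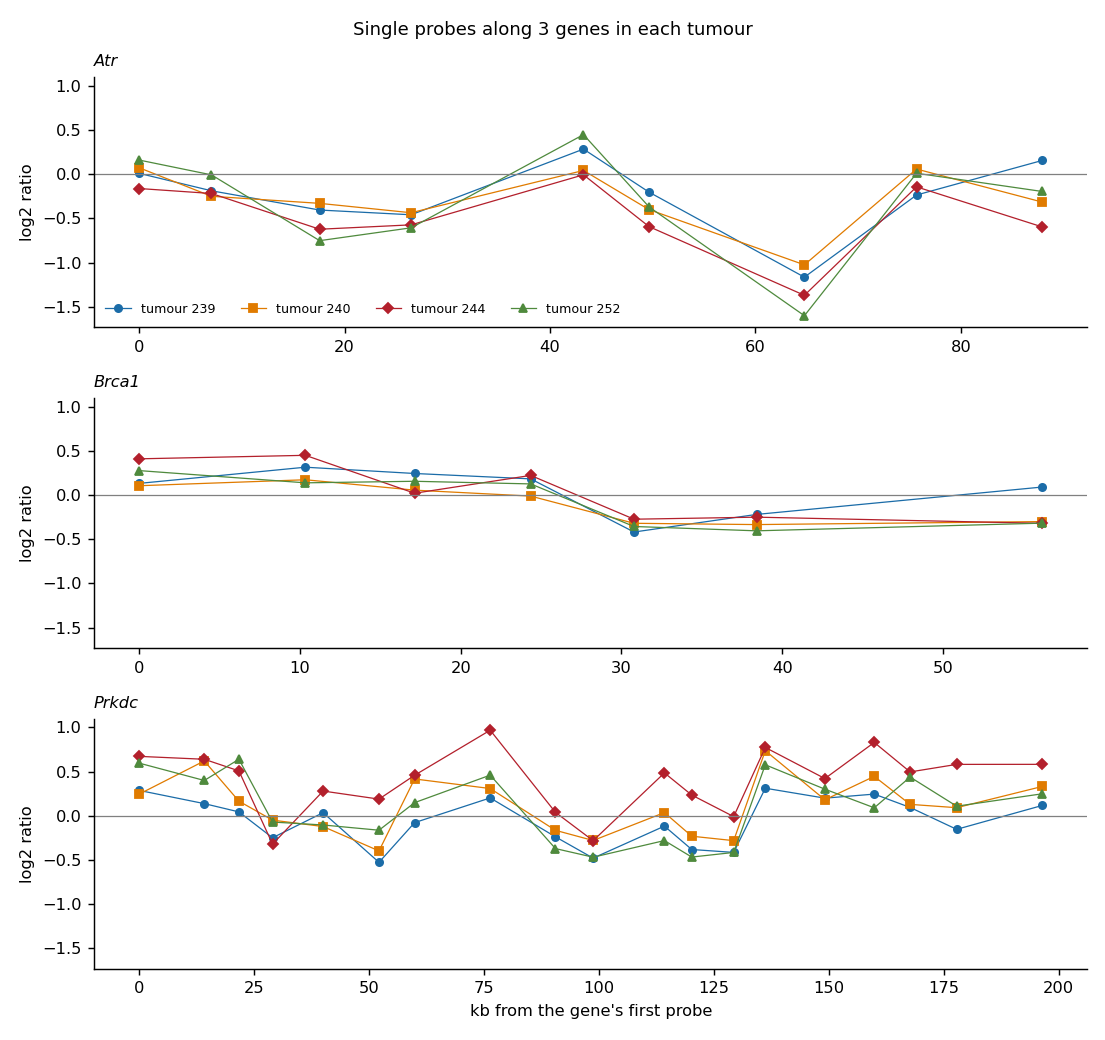
Log2 ratio of tumour over pool of each own probe of Atr, Brca1 and Prkdc against distance in kb from the gene's first probe, 1 line per tumour. The lines of the 4 tumours rise and fall together, with the dip of Atr probe 7 to between -1.60 and -1.03 and the change of sign along Brca1, and tumour 244, with a gene mean of 0.40, lies above the others over most of Prkdc.

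Of 62 other genes of the damage response, 58 had probes, and Rad9, H2afx, Xrcc3 and Fancf had none under the names searched. On their own probes 12 were called higher and 7 lower by limma, 32.8% against 38.8% of all genes. Against their regions 16 were called higher and 11 lower, 46.6% against 48.7% of all genes. Their medians were 0.02 and 0.03, beside 0.02 and 0.01 over all genes. Regions were called for 5 of the 58, 2 higher and 3 lower, which is 8.62% against 11.2% of all gene regions, and 4 of these lie on chromosomes 12 and 15. None of these 5 region calls held without tumour 239 or without tumour 252, where not one of all 17960 regions passed.

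Of 7 end-joining genes, 2 were called higher and 2 lower than their regions, 57.1% of them beside 48.7% of all genes. Xrcc5, which encodes the Ku80 subunit that binds broken ends, had 11 probes at 0.33, 0.24, 0.58 and 0.23 in tumours 239, 240, 244 and 252. It lay above its region by 0.30 ± 0.06 (SD, n = 4; limma adjusted p = 0.00208), and by 0.06 under normexp (limma adjusted p = 0.0895). Nhej1, which encodes the XLF ligation factor, lies on the same chromosome 1 and stood below its region by -0.27 ± 0.05 (limma adjusted p = 0.00237), with own levels of -0.22, -0.31, -0.02 and -0.28. It stood at -0.09 from its region under normexp, -0.17 under lowess and -0.18 with medians over probes, each still called. Both regions stood at 0.23 in tumour 244 and within 0.05 of 0 in the others. Xrcc6, the Ku70 partner of Xrcc5, lies on chromosome 15, where its region was called higher at 0.26 ± 0.09 (limma adjusted p = 0.0113). Its own 3 probes lay below that region by -0.21 ± 0.15 (limma adjusted p = 0.0331). The call ended without tumour 240, at -0.20, without tumour 244, at -0.22, without tumour 252, at -0.15, under normexp at -0.03, under lowess at -0.15, and with medians over probes at -0.08. Lig4, the ligase that seals end-joined breaks, was singled out after its values were seen. Its single probe read 1.33, 0.81, 1.41 and 1.39 in tumours 239, 240, 244 and 252, while its region read 0.12, 0.07, 0.42 and 0.12.

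Of 13 homologous recombination genes measured, 3 were called higher and 3 lower than their regions, 46.2% of them beside 48.7% of all genes. Exo1, an end-resecting nuclease, lay above its region by 0.18 ± 0.04 (SD, n = 4; limma adjusted p = 0.00701) and kept this call under each alternative run. Palb2, the partner that joins BRCA1 to BRCA2, lay below by -0.17 ± 0.14 (limma adjusted p = 0.0498), a call that ended without tumour 239, 240 or 244, at -0.15, -0.12 and -0.18. It also ended under lowess, on probes well above background, with GC correction, with windows of 500 kb and 5 Mb and with robust limma, at -0.17 to -0.14, and the sign turned to 0.07 under normexp.

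In the Fanconi anaemia group, which repairs crosslinks between strands, 3 of 10 genes measured were called higher and 1 lower than their regions, 40% in all beside 48.7% of all genes. Fancm, a DNA translocase gene on chromosome 12, read -0.28, -0.12, -0.19 and -0.14 in tumours 239, 240, 244 and 252, and its region -0.42, -0.27, -0.45 and -0.30. The gene thus stood less far below 0 than its region in every tumour, by 0.18 ± 0.06 (SD, n = 4; limma adjusted p = 0.010). The call ended under lowess, at 0.10, and with medians over probes, at 0.12, and the sign turned under normexp, at -0.10. Fanci, a subunit of the crosslink-sensing complex, lay below its region by -0.17 ± 0.06 (limma adjusted p = 0.0108), and was not called under normexp, at -0.06, without tumour 240, at -0.16, or with neighbours within 5 Mb, at -0.09.

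Of 14 damage sensors and kinase activators measured, 5 were called higher and 2 lower than their regions, 50% of them beside 48.7% of all genes. Nbn, a subunit of the MRE11-RAD50-NBN complex that activates ATM, lay above its region by 0.17 ± 0.06 (SD, n = 4; limma adjusted p = 0.0132), a call that ended under normexp, at 0.03, and without tumour 240 or 252, at 0.16 and 0.14. Etaa1, an activator of ATR, lay in a region of chromosome 11 that was called lower, at -0.14 ± 0.02 (limma adjusted p = 0.0275). Rad1, a subunit of the clamp that activates ATR, lies on chromosome 15, and its region was called higher, at 0.21 ± 0.09 (limma adjusted p = 0.0248). Mre11a and the ATR activator Topbp1, the listed genes of chromosome 9 with at least 3 probes, followed Atm. Mre11a read -0.25 in tumour 244 and -0.09 to 0.03 in the others, and Topbp1 -0.31 in tumour 244 and -0.12 to 0.10 in the others, and neither was called against 0 (limma adjusted p = 0.418 and 0.433). Topbp1 was called lower under normexp, at -0.29 (limma adjusted p = 0.00696). The listed genes of chromosome 9 with fewer probes did not all follow Atm. Atrip, with 2 probes, read -0.32, -0.33, -0.41 and -0.38 in tumours 239, 240, 244 and 252, below its region in each. Tipin, with 2 probes, read -0.17, 0.03, -0.17 and -0.22, and the single probe of Cdc25a read 0.48, 0.43, 0.19 and -0.11.

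Of 9 chromatin mediators measured, 2 were called higher than their regions and 0 lower, 22.2% of them beside 48.7% of all genes. Rnf168, a ubiquitin ligase that recruits TRP53BP1, lay above by 0.18 ± 0.14 (SD, n = 4; limma adjusted p = 0.0428), and by 0.32 under normexp. It was not called with medians over probes, at 0.13, with neighbours within 5 Mb, at 0.16, or without tumour 240, 244 or 252, at 0.15, 0.13 and 0.19. Rif1, an effector of TRP53BP1, lay above by 0.16 ± 0.09 (limma adjusted p = 0.0290) but -0.38 from it under normexp (limma adjusted p = 0.000137), so its direction is not settled. It was also not called under lowess, at 0.03, on probes well above background, at 0.06, with neighbours within 5 Mb, at 0.11, or without tumour 240, 244 or 252, at 0.16, 0.13 and 0.14. Of 5 checkpoint targets and others measured, 1 was called higher and 3 lower than their regions, 80% of them beside 48.7% of all genes. Over all genes 25.8% were called higher and 22.9% lower. Only 1 of these 5 genes had at least 3 probes.

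**Figure D5:**
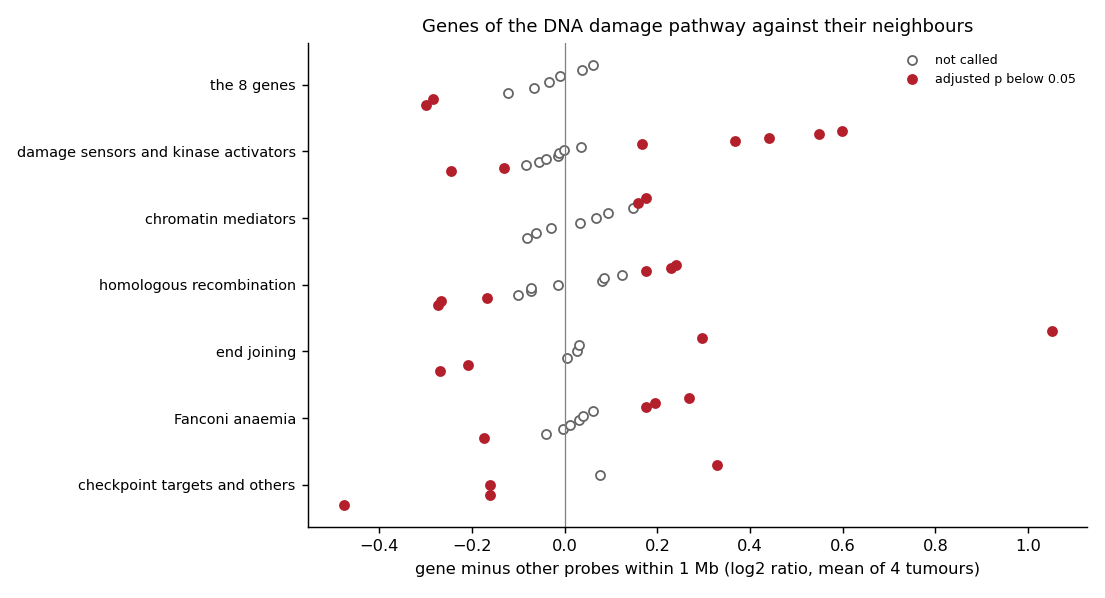
Difference between each gene's own probes and the other probes within 1 Mb, as a log2 ratio averaged over 4 tumours, for the 8 genes (top row) and 58 further genes by group, with filled points called by limma at an adjusted p below 0.05. Points lie on both sides of 0 in every row, but called points lie only below 0 among the 8 genes and only above 0 among the chromatin mediators. The farthest point, at 1.05, is Lig4 with its single probe.

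Genes elsewhere in the genome with at least 5 probes lay close to the profiles of the 8 over the 4 tumours, except for Chek1. Likeness was the Euclidean distance between the 4 own-probe levels, over genes with at least 5 probes on another chromosome. Nearest to Atr was Homer2 on chromosome 7, at a distance of 0.05, with -0.22, -0.25, -0.47 and -0.34 in tumours 239, 240, 244 and 252. Nearest to Atm was Pepd on chromosome 7, at 0.03, and nearest to Prkdc was Fbxo36 on chromosome 1, at 0.04. For Chek2 it was Nxph2 on chromosome 2, at 0.05, and for Trp53bp1 Kcng3 on chromosome 17, at 0.05. For Brca1 it was Trpm3 on chromosome 19, at 0.02, and for Brca2 Rnaseh2b on chromosome 14, at 0.06. Chek1 had no near match among the genes searched: the nearest, Tgfbr1 on chromosome 4, lay 0.17 away. Chek1 itself had 2 probes, and other genes with fewer than 5 were not searched. With only 4 tumours such likeness is common and is given as a description.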

How the data were processed

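Genomic DNA of 4 tumours and 1 pool was hybridised to 2-colour Agilent mouse CGH arrays with the tumour in Cy5 and the pool in Cy3, per the labels. Agilent Feature Extraction 12.0.0 is named in the submitters' processing notes. Per the file headers, background subtraction, detrending and a linear dye normalisation had been applied to the processed intensity, and mean and background intensity are raw brightness. The log10 ratio deposited for each spot is red over green. A separate table by the authors repeats these log10 values without centring, with column medians of 0.0023, 0.00233, 0.00131 and 0.000212. All arrays share 1 slide and 1 dye orientation, so neither can be tested.

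Control spots were dropped, as were 95 to 120 outlier spots on each array. Repeated spots were averaged by probe, and log2 ratios of processed signals were centred on the median of chromosomes 1 to 19, with no loess or quantile step. Levels of 17960 autosomal genes, their neighbours within 1 Mb (at least 5 probes) and the difference were each compared with 0 in limma 3.58.1 (R 4.3.3), with Benjamini-Hochberg adjustment over all genes. The script was tested on simulated data. Other steps used Python 3.11.15, pandas 2.3.3 and statsmodels 0.14.6. With 4 tumours an exact sign-flip test of a single value cannot go below p = 0.125, so none was run. P-values measure the spread between these 4 samples.

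The 8 genes, the pathway list and the tests were chosen with earlier results of these data known. Named beside the 8 were pathway genes called against their region on at least 3 probes (at most 10), pathway genes on chromosome 9 with at least 3 probes, the nearest genes on each side with at least 3 probes, the most alike gene, Fah and Trp53. Lig4, Etaa1, Rad1, Atrip, Tipin and Cdc25a were named after their values were seen. A withheld item is not reported here. All 8 symbols matched the RefSeq table of GRCm38.p6, used only for names. Alternatives covered the centring, background correction, value table, intensity trend, probe filter, summary, window, probe minimum, robust limma and each tumour left out. The normexp alternative used the raw mean and background intensity, so it also left out the detrending and the linear dye normalisation. Its changes therefore cannot be assigned to background correction alone. A correction on probe GC and leaving out the farthest own probe were added after the data were seen.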

Additional observations from a re-analysis of the deposited data

Results flagged for a closer look

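Dixon's test for a single distant tumour, run on 24 sets of levels of the 8 genes, picked out 1, and chance picks out about 1 in 20. The region of Brca1 lay at 0.065 in tumour 244, against -0.00223, 0.00517 and 0.00768 in tumours 239, 240 and 252. With tumour 244 centred on its most frequent level the same region lay at -0.03.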

How the results depend on the processing

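Atr kept its direction and its call, on its own probes and against its region, under each alternative run with limma, at -0.40 to -0.29 and -0.30 to -0.24. Normexp background correction called 2 genes higher than 0 (Chek2 and Trp53bp1), the same count higher than their regions, and 1 region lower (Chek1). It also called Brca2 lower in place of Chek1, on its own probes and against its region. Over all genes normexp called 48.1% against 0, 61.6% against their regions and 13.3% of regions, in either direction. The main run called 38.8%, 48.7% and 11.2%. Requiring 3 probes left Chek1 untested and 1 gene lower than 0, and called Chek2 lower than its region. Neighbours within 500 kb gave 1 region higher (Chek2) and 3 genes lower than their regions, Chek2 among them. With that window 13.7% of all regions and 48.7% of all genes against their regions were called, in either direction. Without each tumour in turn, 0 to 1 genes were higher than 0, 2 to 4 lower than their regions (4 without tumour 239), and 0 to 2 regions higher and 0 to 1 lower (2 and 1 without tumour 244). The shares called over all genes, in either direction, were then 25.9% to 37.6% against 0 and 31.4% to 52.7% against their regions. For regions they were 0% to 39%. Of the pathway genes, 19 were called against 0 and 27 against their regions, and 9 and 14 of the 35 with at least 3 probes. Without each tumour these were 12 to 17 and 18 to 27. Their 5 called regions were 10 under normexp, 3 with at least 3 probes, and 0 to 23 without each tumour, with 0 without tumour 239 or 252 and 23 without tumour 244. The shares over all genes moved as well. With at least 3 probes, 34.7% were called against 0, 52.4% against their regions and 11.2% of regions. Called regions were 0% of all without tumour 239 or 252, 7.5% without tumour 240 and 39% without tumour 244.

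Signs changed in 27 of 355 recomputed values of the 8 genes. Under normexp the difference from the region was 0.013 for Atm, 0.077 for Chek1, 0.28 for Chek2, 0.074 for Brca1 and -0.035 for Prkdc, and the own level 0.32 for Chek2 and 0.091 for Brca1. The difference was also of opposite sign for Fancm at -0.098, Palb2 at 0.068 and Rif1 at -0.38, and the own level of Mre11a was 0.014. Under lowess the differences were 0.0048 for Atm and 0.0086 for Chek2, and the own levels 0.11 for Chek2 and 0.0090 for Brca1. Medians over probes gave Brca1 0.066 and, against its region, 0.048, and its region lay at -0.0060 with centring on the mode and -0.010 within 500 kb. Chek2 lay at 0.0027 on probes well above background and 0.0052 with GC correction. Without each tumour in turn Atm lay -0.038 to 0.020 from its region (0.020 without tumour 240), Chek2 at -0.029 to 0.035 (0.0022 without tumour 239, 0.035 without tumour 252), Brca1 at -0.036 to 0.0093 and Brca2 at -0.070 to 0.0029 (both highest without tumour 240), and the region of Prkdc at -0.0042, without tumour 244, to 0.12. Without the farthest probe Brca1 lay at 0.039 and 0.020 above its region, Brca2 at 0.023, and Trp53bp1 -0.0055 from its region. The causes were not tested. The GC correction and the removal of the farthest own probe were chosen after seeing the data. No paired analysis was possible because all 4 tumours form 1 group.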

Other observations

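One Trp53bp1 probe, at 121096018 to 121096077 on chromosome 2, was printed in 5 spots per array. After outlier spots were left out, its spots had SDs of 0.10, 0.23, 0.15 and 0.14 within tumours 239, 240, 244 and 252, over 5, 5, 4 and 5 spots. The means of that probe were -0.33, 0.06, 0.22 and 0.25.

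Probes of the 8 genes differed widely in brightness. Atr probe 3 was brighter than 7.46% of autosomal probes and probe 4 brighter than 85.2%, and both averaged about the same ratio, -0.53 and -0.52. Chek2 probe 3, brighter than 96.3% of autosomal probes, averaged -0.04.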
